A study of Homo sapiens with 6 samples.

Results

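Orphan G protein-coupled receptors and adhesion G protein-coupled receptors were followed through all-trans retinoic acid (ATRA) treatment of NB4, a human acute promyelocytic leukaemia line with the PML-RARA fusion whose cells mature toward neutrophils in ATRA. The members were the genes of the platform annotation whose current symbol is GPR followed by a digit or starts with ADGR. These were 91 of 19775 genes with a probe set of 1 gene, and older names were carried over by gene identifier. The 6 arrays held NB4 cells left untreated (0 h) and NB4 cells kept in 1e-06 M ATRA for 4, 12, 24, 48 and 72 h, with 1 array per time and no replicates. All 6 came from 1 cell line, and hours of ATRA cannot be told apart from hours in culture. Values are log2 RMA values of the probe set with the highest mean for each gene. Signals of different probe sets are not set against each other as amounts of RNA.

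G protein-coupled receptors sit in the membrane and pass a signal from outside the cell to G proteins inside it. Orphan receptors are those first named by sequence, before a ligand was known, and several have since been paired with lipids, metabolites or protons. Adhesion receptors carry a long outer region that binds other cells or matrix and that in many members cuts itself next to the membrane. In blood, members of the ADGRE branch, which have outer modules like epidermal growth factor, are known from granulocytes, monocytes and macrophages. The symbols also take in proteins of inner membranes that were named as receptors by likeness, such as GPR107 and GPR137B, and 5 noncoding RNAs or pseudogenes and 1 peptide ligand, GPR15LG.

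The arrays were alike in median (3.64 to 3.69) and differed in some controls. The spiked bioC control averaged 8.01 and 8.11 on the 0 and 12 h arrays and 6.88 to 7.17 on the 4, 24, 48 and 72 h arrays. The 28S ribosomal RNA control was higher than untreated by 3.55 at 12 h, 2.75 at 48 h and 2.86 at 72 h, and its part in the results was not tested. Of 6 promyelocyte markers above the filter described next, 3 fell and 0 rose, with a median difference at 72 h of -1.43, and KIT and HLA-DRA stayed below it. In that list CD34 and HLA-DRA stand for a low level in NB4 cells. MPO was at 10.92 at 72 h and 12.90 untreated. CTSG was at 4.40 at 72 h and 6.83 untreated, and ANPEP was at 6.45 at 72 h and 10.02 untreated. PRTN3, AZU1 and CD34 were above the filter with no call. PRTN3 was at 11.07 at 72 h and 10.76 untreated, AZU1 at 9.05 and 9.32, and CD34 at 3.39 and 4.26. All 6 neutrophil maturation markers rose. Of 6 monocyte and macrophage markers with a probe set, 5 (CD14, VCAN, MRC1, MSR1 and C1QA) stayed below the filter.

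A gene was tested when its highest value over the 6 arrays reached the median of all values, 3.66. Of the 91 members 48 reached it (52.7%, against 68.7% of all genes) and 43 stayed near background on every array. Among the 43, the highest value of a gene lay between 1.89 and 3.65, and no gene moved by more than 0.73 between its lowest and highest array. Adhesion receptors near background numbered 12 of 26: ADGRA3, ADGRB2, ADGRB3, ADGRD1, ADGRF1, ADGRF5, ADGRG2, ADGRG4, ADGRG6, ADGRG7, ADGRL2 and ADGRL4. Lipid or metabolite receptors near background were GPR17, GPR18, GPR31, GPR55, GPR174 and the oxysterol receptor GPR183, which was 6 of 10. Among the other orphan receptors 17 of 38 stayed there, namely GPR12, GPR15, GPR19, GPR22, GPR25, GPR26, GPR37, GPR50, GPR52, GPR61, GPR63, GPR75, GPR83, GPR141, GPR146, GPR158 and GPR171. The rest near background were GPR89B, GPR137C and GPR143, the ligand GPR15LG, and ADGRB3-DT, ADGRF2P, ADGRF5-AS1 and GPR176-DT. GPR89A, GPR108, GPR42 and GPR75-ASB3 share their probe sets with other genes and were not analysed here. A low probe set signal does not show that a transcript is absent.

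Just above the filter, within 0.15 of it, were ADGRL3 (highest value 3.67), ADGRF4 (3.76) and the proton sensor GPR4 (3.80). Just below it were GPR31 (3.65), GPR12 (3.64), ADGRF5 (3.63), GPR19 (3.59), GPR52 (3.58) and GPR55 (3.57).

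**Figure D1:**
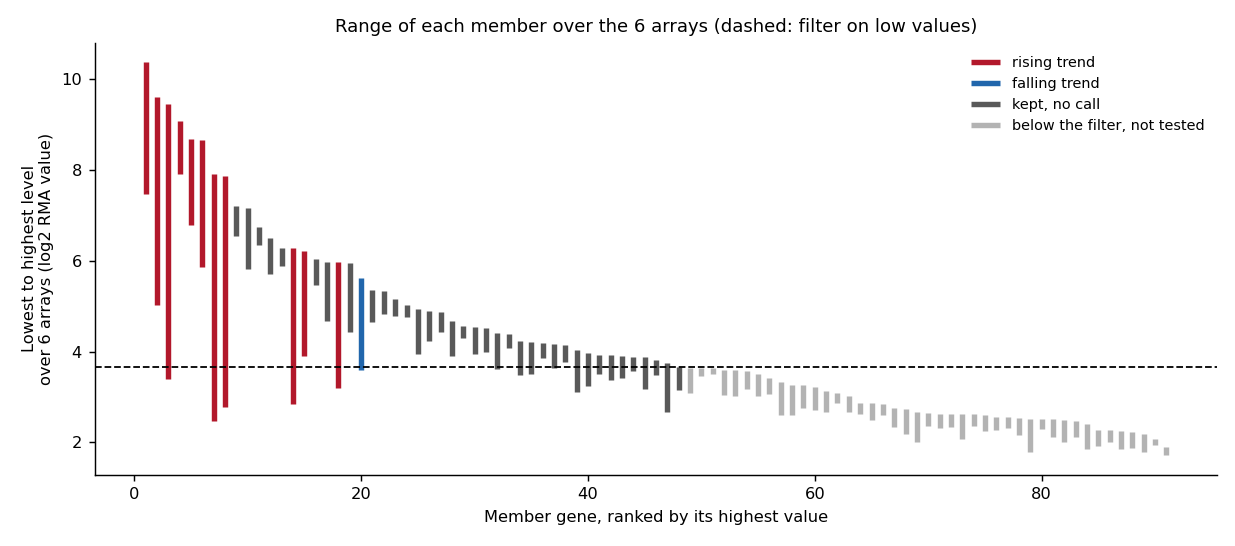
Each bar spans the lowest to the highest log2 RMA value of 1 of the 91 member genes over the 6 arrays, ranked by the highest value and coloured by its call in the trend test. The 43 light grey bars lie wholly below the dashed filter at 3.66, and the 11 red bars of rising genes reach highest values between 5.96 (GPR137B) and 10.36 (GPR160).

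Across the 6 arrays 11 members rose and 1 fell, which together were 25% of the 48 tested, against 18.2% of all kept genes. The rising genes were the adhesion receptors ADGRE1, ADGRE3, ADGRE5 and ADGRG3, the lipid or metabolite receptors GPR34, GPR35 and GPR84, the proton sensor GPR65, the orphans GPR82 and GPR160, and the lysosomal protein GPR137B. The falling gene was the adhesion receptor ADGRA2. The test was limma's for a slope over time order (0 to 5) with Benjamini-Hochberg adjustment over all 13594 kept genes, called at an adjusted p under 0.05. Rising members made up 22.9% of the 48, against a background of 8.33% of all kept genes, and falling members 2.08% against 9.86%. The median slope of the 48 members was 0.01 per step, and that of all kept genes was -0.01.

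Of the 11 rising genes, 5 (ADGRE3, GPR34, GPR65, GPR82 and GPR137B) had an untreated value below the filter, so they entered the test only through later, higher values. Among the 39 members with an untreated value at or above the filter, 6 rose and 1 fell. That is 15.4% rising, against 7.84% of the 12396 genes of the whole array with such an untreated value. All 11 rising genes had their highest value at 72 h. Of them 6 were above untreated at 4 h, 9 at 12 h and 11 at 24 h. They were called for a rise over these same arrays, so high late values largely follow from the call. Matching counts among all rising genes are not given here, and no timing particular to the members is read from these.

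Upstream sequence is shown for 4 of the rising genes, because they cover the adhesion, orphan and lysosomal members and carry the motif matches described next. Each is the 250 bases before the transcript start from the RefSeq promoter table (GRCh38.p14), written 5′ to 3′ on the gene's strand, with motif matches in capitals. GPR82 is at chrX:41723931-41724180, plus strand, GPR137B at chr1:236142289-236142538, plus strand, ADGRE3 at chr19:14674845-14675094, minus strand, and ADGRE1 at chr19:6887329-6887578, plus strand.
GPR82: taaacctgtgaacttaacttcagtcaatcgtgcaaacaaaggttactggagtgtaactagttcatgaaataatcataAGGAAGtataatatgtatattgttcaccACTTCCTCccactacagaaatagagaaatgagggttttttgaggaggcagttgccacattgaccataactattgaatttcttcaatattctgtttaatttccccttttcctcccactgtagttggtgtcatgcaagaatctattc
GPR137B: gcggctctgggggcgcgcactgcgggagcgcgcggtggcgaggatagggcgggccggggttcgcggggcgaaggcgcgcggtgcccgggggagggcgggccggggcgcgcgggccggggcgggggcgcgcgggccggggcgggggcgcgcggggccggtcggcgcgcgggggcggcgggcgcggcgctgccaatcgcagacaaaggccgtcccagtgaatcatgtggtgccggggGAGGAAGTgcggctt
ADGRE3: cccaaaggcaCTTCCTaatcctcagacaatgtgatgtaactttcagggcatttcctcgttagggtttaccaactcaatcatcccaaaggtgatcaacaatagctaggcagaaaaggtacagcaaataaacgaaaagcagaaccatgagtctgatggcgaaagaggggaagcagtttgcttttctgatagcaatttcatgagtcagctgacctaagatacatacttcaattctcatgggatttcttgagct
ADGRE1: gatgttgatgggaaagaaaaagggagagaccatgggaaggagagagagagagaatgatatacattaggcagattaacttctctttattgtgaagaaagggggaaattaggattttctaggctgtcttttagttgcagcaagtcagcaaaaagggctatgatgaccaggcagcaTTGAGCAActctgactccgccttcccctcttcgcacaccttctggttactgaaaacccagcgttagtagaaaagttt

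The motifs searched on both strands were the ETS core AGGAAG, the longer PU.1 core GAGGAAGT that contains it, the C/EBP core TTGCNNAA, the interferon element (GAAA, 2 bases, GAAA), and the retinoid half-site direct repeats with 1, 2 or 5 bases in between. PU.1 and C/EBP proteins are factors of myeloid maturation. The table held 7 of the 11 rising genes. AGGAAG was found in 6 of these 7 (ADGRE3, GPR35, GPR65, GPR82, GPR137B and GPR160), in 13 of 33 kept members with an entry, and in 28.7% of 27303 promoters. GAGGAAGT was found in GPR82 and GPR137B, which is 2 of 7, in 3 of 33 kept members, and in 2.13% of all promoters (2.31% of those of kept genes). TTGCNNAA was found in ADGRE1 alone of the 7, in 6 of 33 kept members, and in 9.13% of all promoters (6.32% of those of kept genes). The interferon element (3.07% of all promoters) and the 3 direct repeats (0.0952%, 0.0366% and 0.0696% for 1, 2 and 5 bases) had no match in the 7. A match describes letters in this window and is not a measured binding site.

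**Figure D2:**
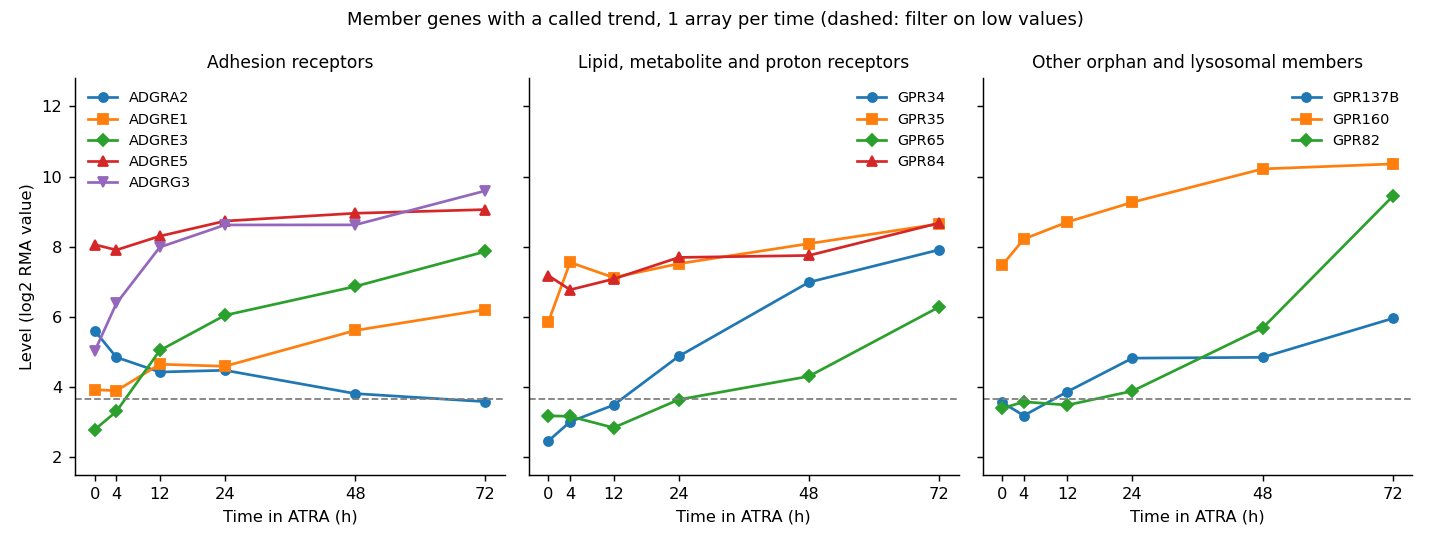
Log2 RMA values of the 12 members with a called trend against hours in ATRA, 1 array per point, in 3 panels by role, with the filter at 3.66 as a dashed line. ADGRA2 is the falling gene, ADGRG3 climbs mostly by 12 h, and GPR82 and GPR65 climb mostly between 48 and 72 h.

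Among adhesion receptors, 14 of 26 were tested, and 4 rose and 1 fell, beside 8.33% rising and 9.86% falling among all kept genes. Of the 4, ADGRE3 entered the test only through later, higher values. The classes are small, and nothing particular to a class is read from this count or from those of the classes below. ADGRG3, also known as GPR97 and found on granulocytes, was at 5.02 in untreated cells and at 6.38, 7.99, 8.62, 8.63 and 9.60 at 4, 12, 24, 48 and 72 h. Every ATRA array lay above the untreated one, and the steps up to 12 h were the largest, at 1.36 and 1.60. At 72 h ADGRG3 was 23.9-fold higher than in untreated cells, and its slope was 0.86 ± 0.10 per step (log2, SE, limma adjusted p = 0.00254). Its other probe set gave 9.84 at 72 h and 4.02 in untreated cells, a difference of 5.82.

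ADGRE3, an EGF-module receptor of granulocytes and monocytes, was at 2.79 untreated and at 3.30, 5.04, 6.05, 6.87 and 7.87 at 4, 12, 24, 48 and 72 h. The 0 and 4 h values were below the filter, and each later array was higher than the one before it. The gene was at least 18.4-fold higher at 72 h, where at least means that the untreated end was set to the filter. Its slope of 1.06 ± 0.06 per step had the lowest adjusted p of the members (limma adjusted p = 0.000274).

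ADGRE1, whose mouse counterpart is the macrophage marker F4/80 and which in human blood is best known from eosinophils, was at 3.93 untreated and at 3.90, 4.65, 4.59, 5.61 and 6.21 in time order. It was 4.88-fold higher at 72 h (slope 0.47 ± 0.06, limma adjusted p = 0.00391). On the same arrays the mean of the 6 monocyte and macrophage markers with a probe set ran from 3.16 to 3.54, and the only one above the filter, CSF1R, was at 6.51 at 72 h and 5.20 untreated with no call. The 4 eosinophil markers with a probe set differed in direction, with a mean of 8.43 at 72 h and 7.0 untreated and a median difference of -1.13 over the 3 above the filter. The eosinophil protein CLC rose to 11.57 at 72 h, against 3.11 untreated, while the granule protein PRG2 fell to 11.41 at 72 h, against 12.54 untreated. The granule peroxidase EPX was at 7.21 at 72 h and 8.90 untreated with no call (limma adjusted p = 0.0811), and the receptor IL5RA stayed below the filter. The part of these markers in the result was not tested.

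ADGRE5, the CD55-binding receptor CD97, was at 8.06 untreated and at 7.91, 8.30, 8.73, 8.96 and 9.06 in time order. It was higher by 0.999 on the log2 scale at 72 h, just short of the 2-fold threshold of 1, with a slope of 0.24 ± 0.05 (limma adjusted p = 0.0142). The difference was 1.66 with the arrays equalised on all hybridisation controls and 0.43 on those without bioC, and neither fit called it (limma adjusted p = 0.1 and 0.0909). Without the 72 h array ADGRE5 was not called either (slope 0.26, limma adjusted p = 0.0556), nor within the 4, 24, 48 and 72 h arrays (0.30, limma adjusted p = 0.0692). ADGRE2, which binds dermatan sulphate and is close to ADGRE5 in its outer modules, was at 5.88 untreated and at 5.85, 6.21, 6.50, 5.71 and 5.70. It was not called (slope -0.03 ± 0.07, limma adjusted p = 0.834), and its value was highest at 24 h in both of its probe sets.

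ADGRA2, also called GPR124 and known for brain vessel growth through WNT7 signalling, was at 5.61 untreated and at 4.85, 4.43, 4.48, 3.81 and 3.58 in time order. All ATRA arrays lay below the untreated one, and the 72 h value was below the filter. It was at least 3.86-fold lower at 72 h (slope -0.38 ± 0.05, limma adjusted p = 0.00355). A second probe set of ADGRA2 stayed at or below 3.54 on every array, so 1 probe set carries this result, and the mean of both gave a difference of -1.13. With the arrays equalised on all hybridisation controls ADGRA2 was not called (slope -0.23, limma adjusted p = 0.388), nor was it within the 4, 24, 48 and 72 h arrays (-0.33, limma adjusted p = 0.058).

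The other 9 adhesion receptors that reached the filter were ADGRA1, ADGRB1, ADGRD2, ADGRE2, ADGRF4, ADGRG1, ADGRL1, ADGRL3 and ADGRV1. None was called, with differences at 72 h between -0.58 and 0.17 and a lowest unadjusted p of 0.0667. ADGRG1, also called GPR56, was at 3.70 untreated and at 3.67, 4.03, 3.46, 3.52 and 3.12 in time order, so it crossed the filter on 3 arrays only, and its second probe set stayed at or below 3.18. The latrophilin ADGRL1 had 3 probe sets above the filter with differences at 72 h of -0.45, -1.08 and -0.31.

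Among lipid or metabolite receptors 4 of 10 were tested and 3 rose, beside 8.33% of all kept genes. Of the 3, GPR34 entered the test only through later, higher values. GPR34, a receptor for lysophosphatidylserine, was at 2.47 untreated and at 3.01, 3.49, 4.88, 6.99 and 7.91 in time order. It first passed the filter at 24 h, and its largest step, 2.11, was between 24 and 48 h. It was at least 19.1-fold higher at 72 h (slope 1.16 ± 0.10, limma adjusted p = 0.000804). Its neighbour on chromosome X, with no other gene start between them, is GPR82.

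GPR35, for which kynurenic acid is a proposed ligand, was at 5.86 untreated and at 7.56, 7.12, 7.52, 8.09 and 8.65 in time order. It stood 3.24-fold above untreated cells at 4 h and 6.92-fold at 72 h, and every ATRA array was above the untreated one. Its slope was 0.46 ± 0.09 (limma adjusted p = 0.0139). Without the untreated array the slope was 0.32 and without the 72 h array 0.44, and in neither fit was it called (limma adjusted p = 0.0784 and 0.0719). The bioC covariate gave 0.36 (limma adjusted p = 0.0508), and the 4, 24, 48 and 72 h arrays gave 0.27 (limma adjusted p = 0.14).

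GPR84, a myeloid receptor that responds to medium-chain fatty acids, was at 7.18 untreated and at 6.77, 7.08, 7.70, 7.75 and 8.68 in time order. The 4 and 12 h values were below the untreated one and the later 3 above it. It was 2.82-fold higher at 72 h (slope 0.32 ± 0.07, limma adjusted p = 0.0254), and was not called without the 72 h array (slope 0.21, limma adjusted p = 0.201) or without the 4 h array (0.28, limma adjusted p = 0.0655). With the arrays equalised on the controls without bioC its difference was 0.93, with no call (limma adjusted p = 0.0527). It also lost the call with the bioC covariate (slope 0.35, limma adjusted p = 0.0543) and within the 4, 24, 48 and 72 h arrays (0.44, limma adjusted p = 0.0568). GPR32, a receptor for resolvins, stayed between 3.48 and 4.23 with no call.

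All 3 proton-sensing receptors with a value were tested, and 1 rose, beside 8.33% of all kept genes. That gene, GPR65, entered the test only through later, higher values. GPR65, which raises cyclic AMP when the outside turns acid, was at 3.18 untreated and at 3.17, 2.84, 3.64, 4.31 and 6.29 in time order. It was below the filter up to 24 h, and the step of 1.98 from 48 to 72 h was its largest. It was at least 6.16-fold higher at 72 h (slope 0.56 ± 0.14, limma adjusted p = 0.0286). It was not called without the 72 h array (slope 0.27, limma adjusted p = 0.157) or without the 4 h array (0.58, limma adjusted p = 0.066). Nor was it called with the bioC level as a covariate (0.56, limma adjusted p = 0.0919) or within the 4, 24, 48 and 72 h arrays (0.71, limma adjusted p = 0.0873).

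GPR132, reported to respond to oxidised fatty acids as well as protons, had another time course. It was at 5.83 untreated and at 7.17, 7.07, 6.66, 6.51 and 6.39 in time order. The highest value was at 4 h, 2.53-fold above untreated cells, and each later array was lower than the one before it. A line over time order gave a slope of 0.01 ± 0.10 (limma adjusted p = 0.956). Its second probe set had the same order of values, with differences from untreated of 1.40 at 4 h and 0.34 at 72 h. With 1 array per time the 4 h difference has no test. GPR4 stayed between 3.48 and 3.80.

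Of the 38 other orphan receptors 21 were tested and 2 rose, beside 8.33% of all kept genes. Of the 2, GPR82 entered the test only through later, higher values. GPR160, an orphan with no settled ligand, was at 7.47 untreated and at 8.22, 8.70, 9.27, 10.22 and 10.36 in time order. Each array was higher than the one before it, and the gene was 7.41-fold higher at 72 h (slope 0.60 ± 0.05, limma adjusted p = 0.000503).

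GPR82, an orphan with no settled ligand, was at 3.39 untreated and at 3.58, 3.49, 3.89, 5.68 and 9.45 in time order. It lay close to the filter up to 24 h, then stepped up by 1.80 to 48 h and by 3.76 to 72 h. The 72 h value exceeded the untreated one by at least 55.1-fold, the largest such fold among the members. Its other 2 probe sets were at 8.21 and 7.99 at 72 h, and at 1.63 and 1.95 untreated, where both were below the filter. The slope of 1.06 ± 0.25 (limma adjusted p = 0.0262) was 0.49 without the 72 h array, 1.02 without 12 h and 1.09 without 4 h, and none of these 3 fits called it (limma adjusted p = 0.0802, 0.0517 and 0.0615). With the bioC covariate the slope was 1.12 (limma adjusted p = 0.0745), and within the 4, 24, 48 and 72 h arrays it was 1.34 (limma adjusted p = 0.103), again with no call.

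The remaining 19 orphans of this kind that reached the filter were not called, with differences at 72 h between -0.79 and 0.30. They were GPR3, GPR6, GPR20, GPR21, GPR27, GPR39, GPR45, GPR62, GPR78, GPR85, GPR101, GPR135, GPR153, GPR157, GPR161, GPR162, GPR173, GPR176 and GPR37L1. GPR153 had one of the flattest courses among genes of clear signal, at 6.57 untreated and 6.52, 6.75, 6.35, 6.48 and 6.40 in time order. GPR85, a brain receptor named here after its values were seen, was at 5.97 untreated and at 4.66, 5.41, 5.37, 5.11 and 5.34. It was 2.48-fold lower at 4 h, and its other probe set stayed at or below 2.62.

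Among members classed as intracellular or non-classical proteins 5 of 8 were tested and 1 rose, beside 8.33% of all kept genes. That gene, GPR137B, entered the test only through later, higher values. GPR137B, a lysosomal membrane protein, was at 3.57 untreated and at 3.19, 3.87, 4.83, 4.85 and 5.96 in time order. It was at least 4.92-fold higher at 72 h (slope 0.51 ± 0.08, limma adjusted p = 0.0057). Its relative GPR137 was at 6.23 untreated and 6.10, 6.29, 5.88, 6.22 and 6.26, with no call. GPR107, a Golgi protein, was at 6.58 untreated and 6.86, 6.53, 6.70, 6.62 and 7.21. It was not called, and its 4 probe sets disagreed in sign at 72 h, with differences of 0.63, 0.50, -0.18 and -0.69. GPR180 had an unadjusted p of 0.0431 and a limma adjusted p of 0.138. Its chosen probe set differed from untreated by 0.64 at 72 h, and its others that reached the filter by 1.41, 0.51 and 1.47. At 4 h the chosen one differed by -0.87, and these others by 0.21, -0.13 and 0.14. GPR155 was flat at 3.57 to 3.88. The pseudogene GPR199P reached the filter with no call.

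Counted by time, 3 members were 2-fold or more higher at 4 h (ADGRG3, GPR35 and GPR132), which was 6.25% of 48 against 1.74% of all kept genes, and 1 was lower (GPR85), against 1.81%. At 12 h 6 were higher and 1 lower, against 2.3% and 1.93% of all kept genes. Of these, GPR34 lay below the filter at both times. At 24 h 6 were higher and 1 lower, against 3.35% and 1.99%. At 48 h 9 were higher and 1 lower, against 5.83% and 4.49%. At 72 h 10 were higher, 20.8% of 48 against 10.9% of all kept genes, and 1 was lower, 2.08% against 12.2%. The lower gene was ADGRA2 from 12 h on. Among the higher genes, ADGRE3, GPR34, GPR65, GPR82 and GPR137B had an untreated value below the filter. They were tested only through later, higher values, so the member shares from 12 h on include genes that the filter let in by their rise. Shares among genes with an untreated value at or above the filter were not computed for these counts. The comparisons share the untreated array. The median difference of the 48 members stayed between -0.02 and 0.09 over the 5 times. Of the 36 tested members without a call, 34 were under 2-fold different from untreated at every time.

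**Figure D3:**
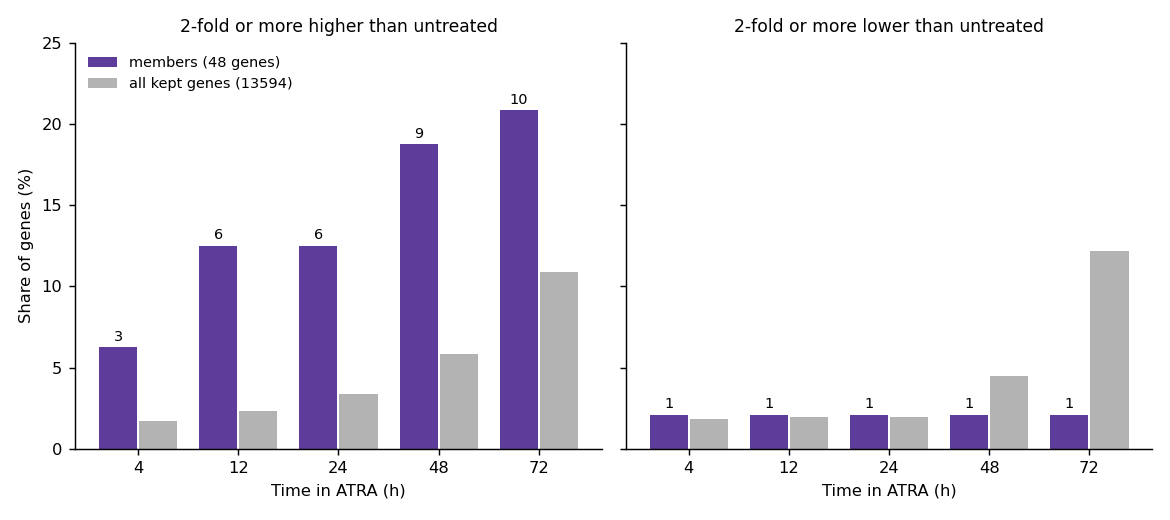
Share of the 48 tested members (left bar of each pair, with the count above it) and of all 13594 kept genes (right bar) that were 2-fold or more higher or lower than untreated at each ATRA time. The member share of higher genes is 6.25% at 4 h and 20.8% at 72 h, while 1 member is lower at each time. From 12 h on the higher members include genes whose untreated value was below the filter.

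**Figure D4:**
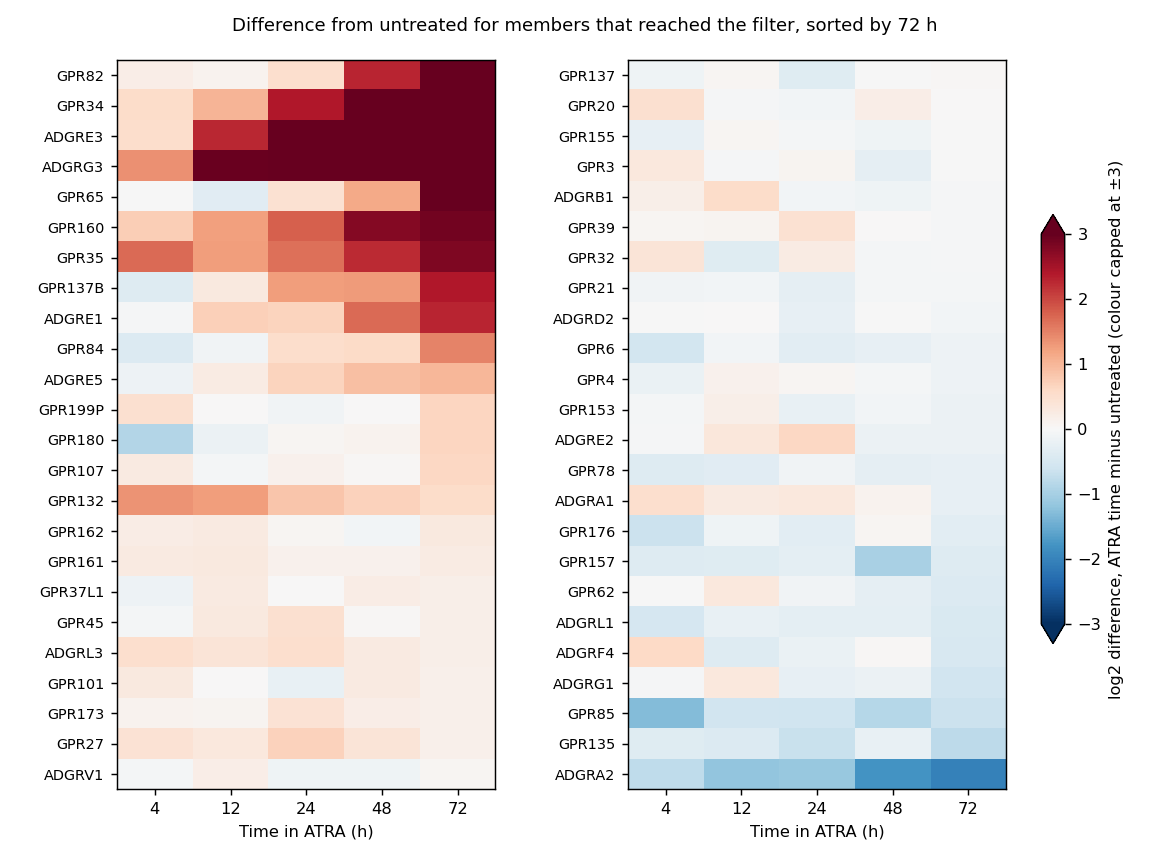
Difference from untreated on the log2 scale for the 48 tested members (rows, sorted by the 72 h difference) at 5 ATRA times (columns), with colour capped at 3. The 11 rising genes fill the top rows, ADGRA2 is the bottom row, and within its row GPR132 is darkest at 4 and 12 h.

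Of the 12 called members, 6 (ADGRE1, ADGRE3, ADGRG3, GPR34, GPR137B and GPR160) were also called in each of 12 refits, which left out single arrays, rescaled the arrays, averaged probe sets, added the bioC level as a covariate or kept only the 4, 24, 48 and 72 h arrays. The other 6 lost the call in at least 1 refit, and no slope changed sign in any of them. Within the 4, 24, 48 and 72 h arrays, which share 1 bioC level, 6 members rose and 0 fell. A fit with the bioC level as a covariate called 7 rising and 2 falling members. Leaving out the 72 h array left 6 rising. The shares of all kept genes called in these refits are not given here, so these counts are not read as results about the members. Of the called members 9 have only 1 probe set, and the second probe set of ADGRA2 stayed below the filter.

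Genes that pass the receptors' signal on were followed as lists. Of 24 kept G protein subunits, 5 rose and 3 fell (median difference at 72 h -0.07), beside 8.33% rising and 9.86% falling among all kept genes. GNG2, a gamma subunit, was at 4.74 untreated and at 6.64, 9.34, 9.99, 10.65 and 10.22 in time order (slope 1.15 ± 0.19, limma adjusted p = 0.00859). GNGT2, GNG5, GNG10 and GNB2 rose by 0.65 to 0.88 at 72 h. The beta subunit GNB5 fell by 2.80 at 72 h, the gamma subunit GNG4 by 2.46 and GNA15, an alpha subunit of blood cells, by 1.13. GNAQ, an alpha subunit, was at 9.12 at 72 h and 8.89 untreated with no call.

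Regulators of G protein signalling (RGS) speed the switch-off of alpha subunits, and 3 of 15 kept genes rose and 0 fell, beside the same 8.33% and 9.86% of all kept genes. RGS1 was at 3.70 untreated and at 5.34, 5.68, 6.73, 8.61 and 9.92 in time order (slope 1.20 ± 0.08, limma adjusted p = 0.000359). RGS2 was at 6.01 untreated and 8.56, 8.14, 8.89, 10.17 and 10.16 (limma adjusted p = 0.00805). RGS13 was at 6.32 at 72 h and 2.13 untreated, where it was below the filter (limma adjusted p = 0.00455). Lower at 72 h without a call were RGS16 and RGS18, and the median difference of the 15 was 0.05. RGS16 was at 7.48 untreated and at 6.27, 8.50, 8.25, 5.99 and 5.31 in time order (limma adjusted p = 0.33). RGS18 was at 6.89 at 72 h and 7.91 untreated (limma adjusted p = 0.172). Of 6 kept arrestins and receptor kinases limma called 0, with 0 at an unadjusted p under 0.05. Of 7 kept adenylyl cyclases limma called 0, with 1 at an unadjusted p under 0.05 and a median difference at 72 h of 0.14. The 1 was ADCY7, at 7.96 at 72 h and 6.02 untreated (limma adjusted p = 0.051). Among all kept genes 32.7% had such an unadjusted p.

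Of 10 kept ligands and partners of member receptors, 3 rose and 2 fell, where 8.33% and 9.86% of all kept genes did. Each list is small, and nothing particular to a list is read from these counts. CD55, the partner of ADGRE5, was at 7.63 untreated and at 7.97, 8.39, 9.11, 9.39 and 10.47 in time order (slope 0.55 ± 0.05, limma adjusted p = 0.00119). The transglutaminase TGM2, a binding partner of ADGRG1, was at 3.70 untreated and at 5.03, 8.21, 10.40, 12.18 and 12.52, a difference of 8.82 at 72 h, while ADGRG1 itself stayed at or below 4.03. The tetraspanin CD9 fell to 3.27 at 72 h, below the filter, against 6.15 untreated (limma adjusted p = 0.000787), and CD81, which binds ADGRG1, was at 8.50 at 72 h and 8.96 untreated with no call. PSAP, the precursor of saposins and a proposed ligand of GPR37, rose by 2.07, while GPR37 stayed near background. PRNP, a ligand of ADGRG6, fell by 1.53, and ADGRG6 stayed near background too. CH25H and CYP7B1, enzymes that make the GPR183 ligand, were below the filter, as was GPR183.

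**Figure D5:**
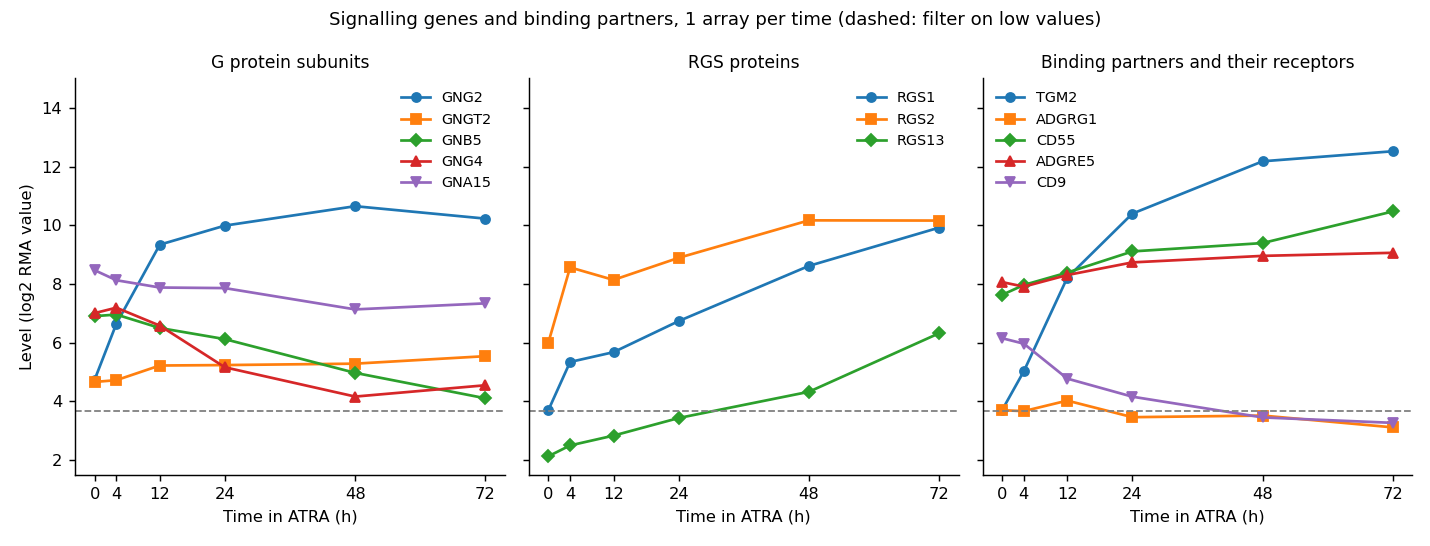
Log2 RMA values against hours in ATRA for the 5 G protein subunits with the largest differences among those called, the 3 called RGS genes, and binding partners with their receptors, 1 array per point, with the filter at 3.66 dashed. TGM2 climbs to 12.52 at 72 h while its receptor partner ADGRG1 stays at or below 4.03, and CD55 and ADGRE5 both end above their untreated value.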

How the data were processed

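Per the submitters' processing notes the authors used RMA, and deposited its log2 summaries per probe set. Its version, software and background method were not given in the sources used here. RMA's normalization makes arrays alike in distribution, which would hide a common shift of most genes. Values lay between 1.39 and 13.6. Precision is limited by the number of arrays. The platform annotation named 1 gene for 41097 of 54675 probe sets, several for 1801 and none for 11777. Control probe sets were left out, and symbols were updated through gene identifiers to the gene table of GRCh38.p14, used for names and neighbours. Each of 19775 genes had 1 probe set, that with the highest mean, and 13594 genes reached 3.66 on an array.

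Groups follow the labelled times. Differences from the untreated array have no test. For slopes over time order limma 3.58.1 was used (R 4.3.3, eBayes with trend, two-sided), and the fit was tested on simulated data. Their errors measure the spread of single arrays around a line. Genes named were every called member, members 2-fold different at 72 h, the 10 with the highest mean, kept ADGRE genes, those within 0.15 of the filter, and called genes of the signalling and partner lists with TGM2, CD55 and GNAQ. Others are named to spell out counts or a course, after their values were seen. Members, lists and motifs were chosen with earlier results of these data known. The alternatives were other scalings, probe set rules, filters, a 3-fold threshold, hours as time scale, the bioC covariate, a baseline of the 0 and 4 h arrays, and arrays left out. The fit to the 4, 24, 48 and 72 h arrays alone was added after seeing the data.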

Additional observations from a re-analysis of the deposited data

How the results depend on the processing

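Counts of members changed with the scaling of the arrays. The matching shares of all kept genes are not given for the settings below, so the counts show dependence on processing only. They are not read as results about the members. Equalising the median of the 18 hybridisation controls shifts every gene relative to untreated by 0.71, -0.15, 0.83, 1.0 and 0.66 at 4, 12, 24, 48 and 72 h, and setting the cre, bioB and bioD average equal (bioC left out) by -0.41, -0.08, -0.48, -0.36 and -0.56. With the first shift 14, 20 and 27 members were 2-fold higher at 4, 24 and 48 h, 0 were lower at 4, 24 and 48 h, and 0 had a falling trend. With the second, 1 was higher at 4 h, 4, 3, 3 and 6 were lower at 4, 24, 48 and 72 h, and 2 had a falling trend. Rising members were 7 with the bioC covariate (2 falling) and 6 within the 4, 24, 48 and 72 h arrays (0 falling). Leaving out arrays gave 6 to 11 rising members and 1 falling. At 3-fold, 1 and 2 members were higher at 4 and 12 h, and 0 lower at 4, 12 and 24 h. With the mean of all probe sets 0 were lower at 4, 12 and 24 h. With the filter at percentile 75, 0 were lower at 12, 24, 48 and 72 h and 0 had a falling trend, since ADGRA2 has a highest value of 5.61, below that filter of 5.74. Against a baseline averaged over 0 and 4 h, 2 were higher at 12 h and 0 lower at 12 and 24 h. For the other changes the cause was not tested. Of the 12 called members, 6 lost the call in at least 1 of 12 refits and 0 turned sign. Cyclic loess, dropping x_at probe sets, hours as time scale and no filter kept every such count within 1.5 times. No paired analysis was possible because each time has 1 array.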
